A study of Vitis vinifera with 2 samples.

Results

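The regions described here were the intergenic ChIP-seq peaks of the transcription factor VlbZIP30 that lay 3 to 10 kb upstream of a gene. They were taken from the authors' deposited peak list as the peaks annotated as intergenic whose centre was 3001 to 10000 bp upstream of the nearest transcription start site (TSS). The rule used the annotation and the distance only, and no measured score. It found 4913 of the 49173 peaks, or 9.99% of the list (95% exact Clopper-Pearson interval 9.73 to 10.3%), and their nearest genes numbered 3330 of the 20152 genes in the list. They are called distal upstream peaks below.

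The peaks came from leaves of grapevine (Vitis vinifera) carrying VlbZIP30 fused to 3 copies of the FLAG tag behind the CaMV35S promoter, a viral promoter active in most plant tissues, so binding was read from an overexpressed protein. There were 2 libraries, 1 precipitated with the anti-FLAG M2 antibody and 1 control, whose title says input while its antibody field says IgG. Both came from transgenic plants aged 4 months that went without water for 20 days, with the uppermost leaves taken. The number of plants and of transgenic lines is not given in the sources used here, and no untagged or watered plants were analysed here.

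VlbZIP30 belongs to the basic leucine zipper (bZIP) proteins, which bind DNA as pairs through a basic region. Many plant bZIP proteins act in abscisic acid signalling, through which leaves respond to drought, and bind DNA with an ACGT core. Most of the well-studied sites of such factors lie in the promoter, close to the gene. Sites several kilobases upstream are less studied in plants, and some belong to enhancers, elements that act on a gene over a distance.

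With 1 peak list from both libraries there was no replicate error, and nothing below is a test between conditions. Intervals of shares are exact binomial ones and intervals of medians are taken from the ordered values. Both cover counting error over peaks, and peaks are not replicates. The scale of the authors' score is not named and library depth is unknown, so scores serve here for ranks and for medians inside the list. Whole-list scores had a median of 7.56, with quartiles of 3.64 and 18.5.

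Distal upstream peaks thinned out steadily with distance, while their scores changed little. From 3 to 4 kb there were 1606 peaks, from 4 to 5 kb 1049, from 5 to 6 kb 789 and from 6 to 7 kb 559. From 7 to 8 kb there were 397, from 8 to 9 kb 295 and from 9 to 10 kb 218. The nearest kilobase thus held 7.37 times as many as the farthest, and 54.0% of the distal upstream peaks lay within 5 kb. Their median distance was 4771 bp, with quartiles of 3727 and 6415 bp. The intergenic space that exists at each distance was not used here, so these counts are not densities of binding.

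The median score was 10.7 (95% interval 9.85 to 11.7) from 3 to 4 kb, 10.5 (9.21 to 12.2) from 6 to 7 kb and 8.68 (7.02 to 11.7) from 9 to 10 kb. These intervals overlapped, and all 7 of the one-kilobase steps had medians between 8.68 and 10.7. Median lengths lay between 469 and 505 bp in the 7 steps.

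**Figure D1:**
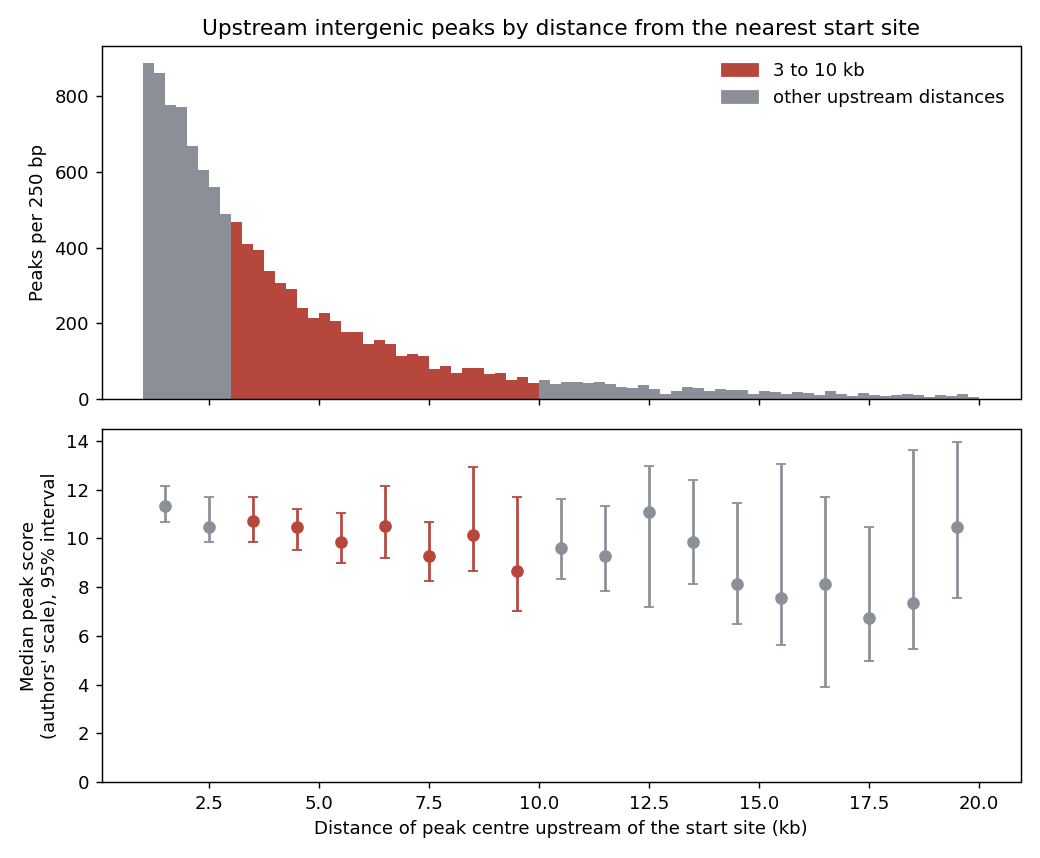
The upper panel plots the number of upstream intergenic peaks per 250 bp of distance from the nearest TSS, with distances of 3 to 10 kb in red and other distances in grey. The lower panel plots the median peak score per kilobase with its 95% interval; the red medians lie between 8.68 and 10.7 while the counts per kilobase fall to 218.

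The peaks next to the 2 bounds were of mixed score. At the inner bound, the 3 peaks just inside, at 3001, 3001 and 3002 bp, had scores of 21.9, 68.8 and 9.26. The 3 just outside, all at 3000 bp, had scores of 9.26, 27.0 and 5.90. At the outer bound, the 3 peaks just inside, at 9996, 9983 and 9980 bp, scored 2.45, 5.35 and 19.7. The 3 just outside, at 10013, 10016 and 10017 bp, scored 3.48, 2.78 and 5.98.

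As a group, distal upstream peaks had a median score of 10.4 (95% interval 9.85 to 10.7), with quartiles of 4.97 and 23.2 and a highest value of 139. Of them, 1571 or 32.0% (30.7 to 33.3%) scored above the upper quartile of the list, against 24.9% of all peaks. A further 843 or 17.2% (16.1 to 18.2%) scored at or below the lower quartile, against 26.6% of all peaks. Their scores thus leaned towards the upper part of the list, which was not particular to them. The share above the upper quartile was 32.7% for intergenic peaks under 3 kb upstream and 35.6% for promoter peaks. It was 27.5% for intergenic peaks over 10 kb upstream and 23.1% for those 3 to 10 kb downstream.

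Their scores lay close to those of upstream intergenic peaks nearer the gene. Over the whole window, they lay above those of intergenic peaks on the other side of the gene. The median of 10.4 for distal upstream peaks compared with 11.1 (10.5 to 11.7, n = 5624) for intergenic peaks under 3 kb upstream. It compared with 8.68 (8.12 to 9.51, n = 1169) for those over 10 kb upstream. Intergenic peaks 3 to 10 kb downstream of the TSS, a like distance on the gene side, had a median of 7.89 (7.56 to 8.39, n = 2713). By kilobase, downstream medians were 7.56 (6.49 to 8.12) from 3 to 4 kb and 7.69 (6.49 to 8.96) from 4 to 5 kb. Those of distal upstream peaks were 10.7 (9.85 to 11.7) and 10.5 (9.54 to 11.2). From 5 to 9 kb the upstream medians were also the higher, with intervals that overlapped or met. From 9 to 10 kb the order turned, with 8.68 (7.02 to 11.7) upstream and 9.22 (6.98 to 12.0) downstream. Over the whole window, the median of distal upstream peaks exceeded the downstream one on 19 of 19 numbered chromosomes. It exceeded that of peaks over 10 kb upstream on 14 of 19 and that of peaks under 3 kb upstream on 5 of 19. The order against peaks over 10 kb upstream did not hold at like length, as given below. Promoter peaks, centred around the TSS, had a median of 12.8 (12.3 to 13.0, n = 12387). A downstream peak is separated from its TSS by the gene, so the neighbourhoods on the 2 sides differ in more than direction.

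**Figure D2:**
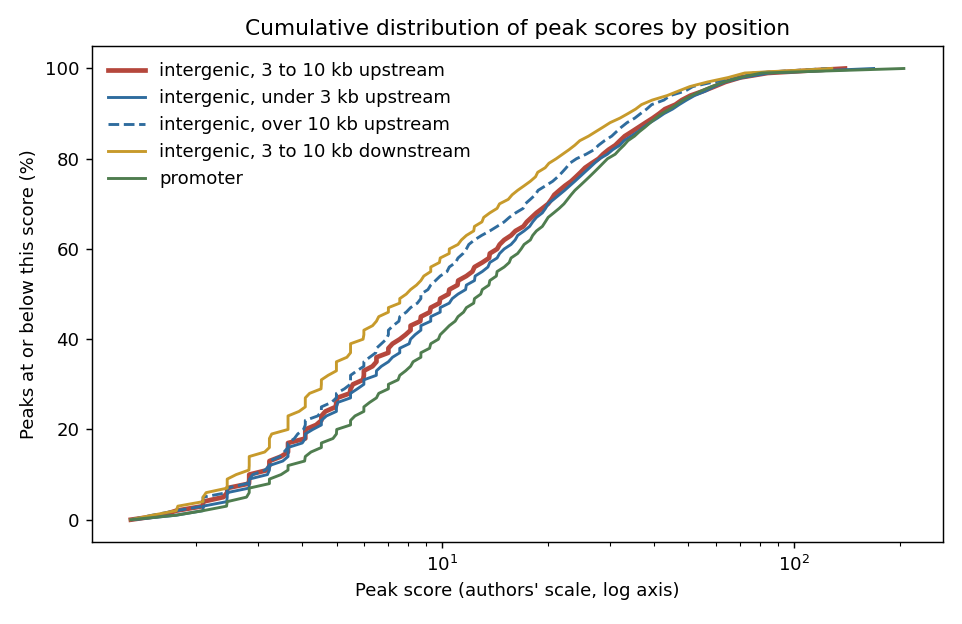
Each line gives the percentage of peaks (vertical axis) at or below a peak score on the authors' scale (horizontal log axis) for 5 positions. At the median, the line for 3 to 10 kb upstream (10.4) stands between promoter peaks to its right (12.8) and downstream intergenic peaks to its left (7.89), and it crosses the promoter line among the highest scores.

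Set against peaks of like length, distal upstream peaks had median scores close to those of promoter peaks and, below 2000 bp, above those of downstream peaks. Distal upstream peaks had a median length of 494 bp (482 to 507), against 521.5 bp (509 to 535) under 3 kb upstream, 442 bp (410 to 461) over 10 kb upstream, 496 bp (480 to 515) downstream and 625 bp (616 to 637) in promoters. Among peaks of 500 to 999 bp, distal upstream peaks had a median score of 16.1 (15.0 to 17.4, n = 1518), and promoter peaks one of 15.7 (15.0 to 16.1, n = 4479). Medians at that length were 15.8 under 3 kb upstream and 11.7 (10.5 to 12.3, n = 789) downstream.

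The same order was seen among peaks of 1000 to 1999 bp. There the medians were 24.6 (23.0 to 26.2, n = 659) for distal upstream peaks, 24.5 (23.2 to 25.2) for promoter peaks and 17.8 (15.7 to 20.0, n = 377) for downstream peaks. From 300 to 499 bp they were 7.02 (6.95 to 7.75, n = 1434), 7.56 (7.02 to 7.56) and 5.48 (5.01 to 5.98, n = 746) for distal upstream, promoter and downstream peaks. Among the shortest peaks, under 300 bp, distal upstream and promoter peaks had the same median of 4.08, and downstream peaks one of 3.64 (3.48 to 3.83). At 2000 bp or more the intervals of distal upstream peaks (31.9 to 37.2, n = 252) and downstream peaks (27.8 to 36.1, n = 182) overlapped. Distal upstream peaks had medians below those of peaks over 10 kb upstream in each of the 5 length classes, with overlapping intervals. These were 4.08 (4.08 to 4.53) against 4.52 (4.08 to 4.89, n = 320) under 300 bp and 33.4 (31.9 to 37.2) against 37.4 (31.4 to 43.5, n = 42) at 2000 bp or more. In each of the 5 length classes, the intervals of distal upstream and promoter peaks overlapped or met.

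**Figure D3:**
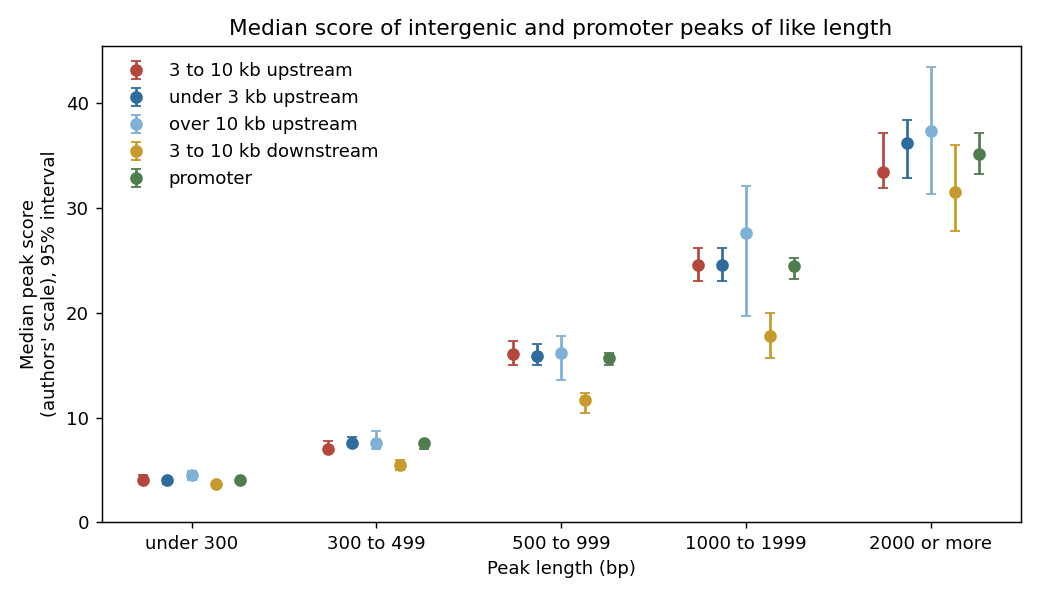
Points are median peak scores on the authors' scale with 95% intervals, in 5 classes of peak length in bp, for intergenic peaks at 4 positions and for promoter peaks. In the class of 500 to 999 bp, peaks 3 to 10 kb upstream stand at 16.1 and promoter peaks at 15.7, while downstream peaks stand at 11.7.

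The strongest distal upstream peak scored 139, rank 11 of the whole list. It was 2201 bp long, on chromosome 19 (3552105 to 3554305), and lay 5374 bp upstream of VIT_19s0014g03400, a plus-strand gene with its TSS at 3558579. The promoter peak of the same gene (3557417 to 3558834) scored 45.4. The second, at 127, was 782 bp long on chromosome 8 (4353608 to 4354389), 6766 bp upstream of VIT_08s0032g00790, which had no promoter peak but 6 other peaks in addition to 2 distal upstream ones. Both genes are given by identifier because 0 of the 3330 identifiers could be matched to a gene name, so nothing is said of their function.

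The third, also at 127, lay on chromosome 10 (7334340 to 7335745), with its nearest TSS, on the minus strand at 7330981, 4061 bp away. The promoter peak of that gene scored 1.75, close to the lowest score in the list. The fourth, at 124, was a peak of 479 bp on the sequence named 9_random (194242 to 194720), and it was the only peak in the list for its gene. A peak of chromosome 1 (21152476 to 21153226) scored 121, and its TSS was 3149 bp away at 21156000. Its promoter peak scored 56.9.

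The next 5 scored between 111 and 113. One was found on chromosome 16 (17863607 to 17865085) at a distance of 8437 bp, and one on chromosome 2 (2056830 to 2058554) at 6689 bp. Others were found on chromosome 15 (17333910 to 17335154) at 4283 bp, on chromosome 17 (5170460 to 5171909) at 6311 bp and on chromosome 1 (8948856 to 8954970) at 3865 bp. Their promoter peaks scored 62.8 on chromosome 16, 14.3 on chromosome 2, 12.6 on chromosome 15 and 14.2 on chromosome 1, and the gene on chromosome 17 had none. Of the 10 strongest, 7 thus stood upstream of a gene with a promoter peak, and in each of these 7 the distal peak scored higher than the promoter peak. These 10 were picked by their scores, so that count describes them only.

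A few distal upstream peaks were long enough to reach their gene. Of all, 96 or 1.95% (1.59 to 2.38%) were 3 kb or longer, against 2.44% of all peaks. The longest had 11418 bp on chromosome 4 (17433842 to 17445259), with its centre 3709 bp from a minus-strand TSS at 17435841, and it ran across that TSS. It scored 93.9. Chromosome 8 held the next longest (16086421 to 16097741, score 64.5) and the fourth (16853117 to 16863106, score 38.6). Chromosome 18 held the third (8698800 to 8708810, score 35.4) and the fifth (4112909 to 4122457, score 44.5). In all, 6 distal upstream peaks spanned the TSS of their nearest gene, 17 had an edge within 1 kb of it or across it, and 638 or 13.0% had an edge within 3 kb.

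Most genes had a single distal upstream peak, and the majority of genes also had peaks elsewhere. Of the 3330 genes, 2261 had 1 distal upstream peak, 695 had 2, 267 had 3, 78 had 4, 25 had 5 and 4 had 6. A promoter peak named for the gene was present at 1806 genes, or 54.2% (52.5 to 55.9%), against 58.3% of all genes in the list. Another upstream intergenic peak, under 3 kb, was present at 46.3% (44.6 to 48.0%), against 24.8% of all genes, and one over 10 kb upstream at 8.68% (7.74 to 9.69%), against 3.74%. Exon peaks were present at 30.5% and intron peaks at 26.7%, against 29.4% and 27.7% of all genes. Peaks at the transcription termination site (TTS) were present at 26.6%, against 28.0% of all genes.

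The shares of genes with a nearer or a farther upstream intergenic peak were thus above those of the whole list, and the shares with exon, intron and TTS peaks lay within 2 percentage points of it. These genes also had more listed peaks, with a median of 4 peaks per gene against 2 in the whole list, and 10.3% against 36.2% with 1 peak in all. They were chosen for having a distal upstream peak, and a gene with many peaks is more likely to have one. Distal upstream peaks were also 4913 of their 13358 peaks. These differences in peak number were thus in part fixed in advance. The whole list includes the 3330 genes themselves, and the length of the upstream space of each gene was not used here. There were 429 genes, or 12.9% (11.8 to 14.1%), with distal upstream peaks alone. At 988 genes, or 29.7%, neither a promoter peak nor any other peak centred within 1 kb of the TSS was listed, against 22.5% of all genes. Other genes could enter the list by a promoter peak alone, whereas these entered by a distal upstream peak. The shares with a promoter peak or a peak near the TSS are thus not like measures in the 2 sets.

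**Figure D4:**
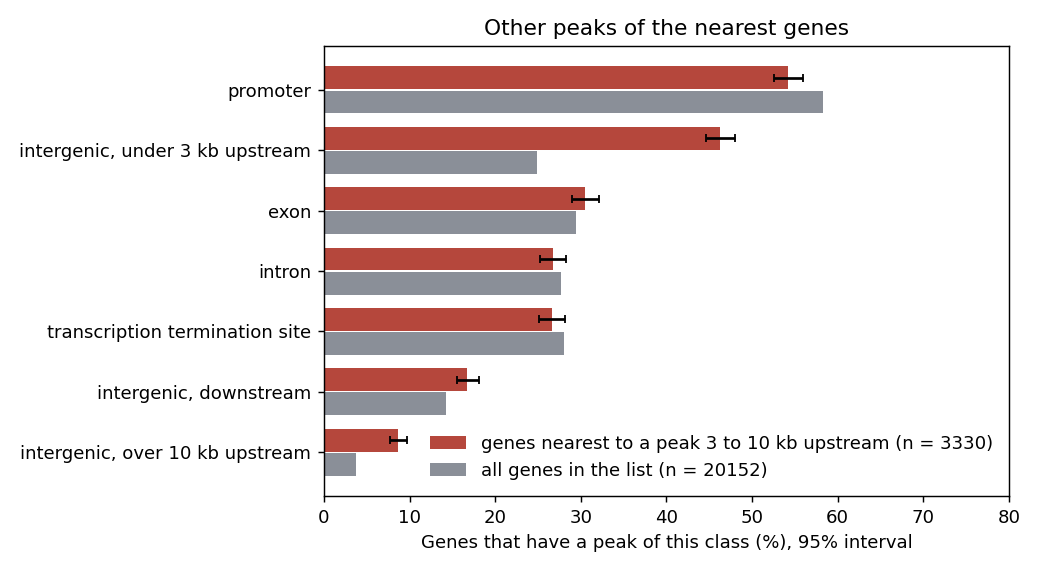
Bars give the percentage of genes with a peak of each class, for the 3330 genes nearest to a peak 3 to 10 kb upstream (red, with 95% intervals) and for all 20152 genes in the list (grey). Nearer upstream intergenic peaks stand at 46.3% against 24.8%, and promoter peaks at 54.2% against 58.3%.

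Median scores of distal upstream peaks differed with the presence of a promoter peak. Those at genes with a promoter peak had a median score of 11.1 (10.5 to 11.7, n = 2749), against 9.26 (8.68 to 9.85, n = 2164) at genes without one. Those at the 429 genes with no other kind of peak had a median of 7.59 (6.98 to 8.68, n = 544). Lengths moved with these scores, with medians of 524 bp (507 to 546), 461 bp (446 to 476) and 361.5 bp (340 to 393) for the 3 sets; the part of length in the score differences was not tested.

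Within a gene, the distal peak was more often the lower one where each kind was single. At the 1124 genes with 1 distal upstream peak and 1 promoter peak, the distal peak scored higher in 438, or 39.0% (36.1 to 41.9%). Median scores in these genes were 10.8 for the distal peaks and 17.1 for the promoter peaks. Over all 1806 genes with both kinds, taking the highest of each, the distal peak was higher in 46.2% (43.9 to 48.6%), with medians of 15.0 and 17.1. These genes held 2749 distal upstream peaks, and a gene with several had more draws for the highest. The 46.2% is thus not a like measure to the 39.0%. Among the 2986 genes that had 2 or more peaks of any kind, the highest-scoring one was a distal upstream peak in 1132 (37.9%), a promoter peak in 703 (23.5%) and an upstream intergenic peak under 3 kb in 475 (15.9%). Every one of these genes has a distal upstream peak by the way they were chosen, whereas not all have a promoter peak.

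Where 2 distal upstream peaks belonged to 1 gene, the nearer one was the stronger in slightly more genes than the farther one. The nearer one scored higher in 369 of 695 such genes, or 53.1% (49.3 to 56.9%), and 6 genes, counted in the 695, had equal scores. Median scores were 11.8 for the nearer and 9.85 for the farther peaks. Their centres were a median of 1612 bp apart, with quartiles of 1123 and 2350 bp.

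The 4 genes with 6 distal upstream peaks show what such runs look like. On chromosome 10, with a TSS at 17308258 on the minus strand, the 6 ran from 17311278 to 17318513. Their scores were 5.48, 13.7, 4.43, 5.63, 40.6 and 19.7 from near to far. This gene had 11 peaks in all, 10 of them upstream and the farthest at 20422 bp. None was annotated as a promoter peak, but a peak annotated as intron (17307853 to 17308319, score 9.85) ran across the TSS.

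On chromosome 17, with its TSS at 16994813 on the minus strand, the 6 ran from 16998401 to 17004162 and scored 8.12, 20.2, 30.2, 8.82, 9.11 and 62.5 from near to far. The seventh and last peak of that gene lay 2999 bp upstream, just inside the nearer intergenic class, with a score of 22.8. The gene had no promoter peak.

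On chromosome 2, with a plus-strand TSS at 17219851, the 6 ran from 17209674 to 17215157 and scored 13.6, 2.43, 32.7, 5.26, 54.4 and 35.2 from near to far. The promoter peak scored 22.5. On chromosome 1, with a minus-strand TSS at 19511747, the 6 ran from 19515379 to 19519768 and scored 5.48, 7.56, 10.5, 13.0, 24.1 and 13.0 from near to far. The promoter peak of that gene scored 7.02, below 5 of these 6. In all 4 genes the strongest peak was an intergenic one more than 7 kb upstream. These genes were picked for having the most distal upstream peaks, which were 6 of their 7 to 11 peaks. That count thus describes these 4 only.

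**Figure D5:**
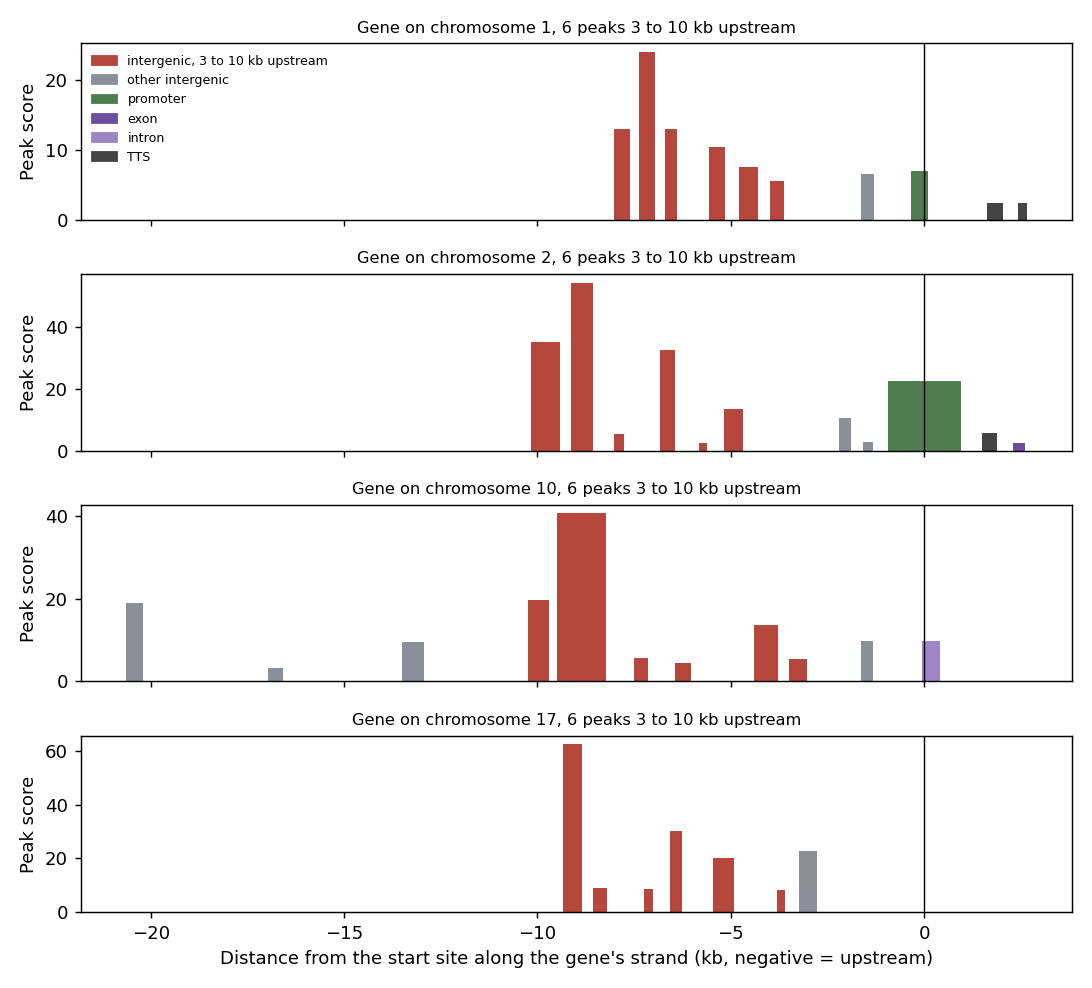
For each of the 4 genes with 6 peaks 3 to 10 kb upstream, bars mark all its peaks by their distance from the TSS along the gene's strand in kb (width is the peak length) and their score on the authors' scale (height), coloured by annotation class. The tallest bar in every panel, from 24.1 to 62.5, is a peak 3 to 10 kb upstream.

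The share of distal upstream peaks with another peak close by lay near that of the whole list. A peak of any class lay within 1 kb, edge to edge, of 2847 or 57.9% (56.6 to 59.3%), and within 500 bp of 31.8%, against 37.5% of all peaks at 500 bp. At 1 kb the shares elsewhere were 69.4% (68.2 to 70.6%) under 3 kb upstream, 39.8% (37.0 to 42.6%) over 10 kb upstream, 59.9% downstream, 53.6% in promoters and 61.2% over all peaks. Distal upstream peaks with a neighbour had a median score of 11.7 (11.1 to 12.3) and a median length of 578 bp. The 2066 without one had a median score of 8.68 (8.12 to 9.26) and a median length of 417 bp, and the 225 with no other peak within 10 kb had medians of 7.21 (6.49 to 8.12) and 314 bp. Score and length fell together here, and the part of length was not tested.

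The strand of the nearest gene could be read from the list for 4569 distal upstream peaks, those whose gene had 2 or more peaks. The next peak towards the gene belonged to the same gene in 97.2% and was another intergenic peak in 70.4% (69.0 to 71.7%). It was a promoter peak in 20.9% (19.7 to 22.1%), an exon peak in 4.22%, an intron peak in 2.71% and a TTS peak in 1.84%. The next peak on the far side was intergenic in 74.0% (72.7 to 75.2%), a promoter peak in 9.57%, a TTS peak in 7.67%, an exon peak in 5.12% and an intron peak in 3.66%. It had the same nearest gene in 44.7%. A peak centred between a distal upstream peak and its nearest TSS has that TSS as its own nearest one by construction. The 97.2% was thus largely fixed in advance and is not a like measure to the 44.7%.

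Genes on the far side of the peak were split almost evenly between the 2 strands. For 4557 distal upstream peaks a TSS could be placed beyond the peak. In 2273 or 49.9% (48.4 to 51.3%) that gene was on the opposite strand, so that the peak lay upstream of both genes. In 2284 or 50.1% it was on the same strand, so that its TSS and that of the nearest gene faced the same way. Median scores were 11.0 (10.1 to 11.7) for the first arrangement and 10.5 (9.85 to 11.1) for the second.

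In 819 cases, or 18.0% (16.9 to 19.1%), both TSSs of a pair facing apart were within 10 kb of the peak. Only genes with 2 or more peaks could be placed, so TSSs of other genes in between were not counted. Plus-strand and minus-strand nearest genes held 2358 and 2211 peaks, with median scores of 10.5 each.

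Distal upstream peaks were found on every numbered chromosome. Their share of a chromosome's peaks ran from 8.47% (7.44 to 9.59%) on chromosome 5 to 12.5% (11.0 to 14.1%) on chromosome 9. These 2 were the extremes of 19 chromosomes, picked by their values, so their separate intervals are no test of a difference. Chromosome 14, at 8.49%, stood next to chromosome 5, and chromosome 10, at 11.4%, next to chromosome 9. Median scores ran from 8.68 on chromosome 14 to 13.0 on chromosome 2. Per Mb up to the last peak of each sequence, they numbered 7.97 on chromosome 19 and 15.0 on chromosome 8. The 239 on the sequence named Un had a median score of 11.6, and 65 lay on 9 of the sequences named random.

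The 1 Mb with most of them, from 16000001 to 17000000 on chromosome 8, held 37 distal upstream peaks of 19 genes among 265 peaks in all. The median was 9 over the 461 such windows with any. The 37 had a median score of 7.02, below that of the whole group, and a highest score of 64.5.

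Genes with ENSRNA identifiers, set apart by name from the VIT genes, were nearest to 45 distal upstream peaks, or 0.916% (0.669 to 1.22%), against 1.44% of all peaks. These 45 had a median score of 8.42 (4.996 to 10.5), and the 4868 at VIT genes had one of 10.4 (9.85 to 10.7). The intervals overlapped.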

How the data were processed

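A single peak list by the authors, named as FLAG against input, was analysed. BWA, MACS2 and HOMER were used, per the submitters' processing notes, with no role or version given. Not given in the sources used here were the genome build, annotation, settings and any pooling. The deposited list gives for every peak its position, score, class, distance in bp to the nearest TSS (signed) and gene identifier, per the file headers. No peak was shorter than 196 bp and no gap between peaks was under 197 bp.

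Positions are printed as the list gives them. Distances run from the peak centre. The strand and TSS of 12847 genes with 2 or more peaks were recovered as the 1 strand on which all distances met within 2 bp, and 0 genes fitted neither strand. Functions were tested on simulated data. Of 20152 identifiers, 0 matched the RefSeq name table of 29591 genes, so the planned lists of drought regulators were not run. Named peaks were the 10 strongest, the 5 longest, the 3 on each side of each bound, the genes with most such peaks and the densest 1 Mb. The regions and lists were chosen with earlier results of these data known. No adjusted p or test was computed. Values were computed in Python 3.11.15 (pandas 2.3.3, numpy 2.4.6, scipy 1.17.1) and drawn with matplotlib 3.10.9.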

Additional observations from a re-analysis of the deposited data

How the results depend on the processing

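Of 19 alternative values, 7 stayed within the 95% interval and 12 moved; shares and medians have no direction to change. Distal upstream peaks held 8.82% of the list when measured from the nearest edge, 14.7% from 2 to 10 kb, 4.59% from 5 to 10 kb and 12.8% among peaks above the upper score quartile. Their median score was 8.12 under 1 kb long and 9.26 by edge distance, and their median length 866 bp among peaks above the upper score quartile and 466 bp by edge distance. Genes with a promoter peak were 25.3% for promoter peaks above the upper score quartile and 70.3% for any peak centred within 1 kb of the TSS. Neighbours were found for 31.8% within 500 bp and 75.8% within 2 kb. Wider or narrower windows and gaps change these counts by construction. Counting only promoter peaks above the upper score quartile can likewise only lower the share of genes. For the rest the cause was not tested. Edge distances for scores and lengths, and the set without ENSRNA genes, were chosen after seeing the data. The score difference from downstream peaks was 2.51 for all peaks and 2.14 for peaks under 1 kb. From peaks over 10 kb upstream it was 1.72 and 0.559. Peaks under 1 kb still mix lengths. Within each narrower length class given above, distal upstream peaks had the lower median of these 2 groups, with overlapping intervals. No paired analysis was possible because there was 1 library per group; for the same reason no replicate could be left out. Library depth is unknown.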
